A study of Sus scrofa with 12 samples.

Results

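Transcripts whose proteins are known mainly from epithelia or other polarized cells were followed in the annulus fibrosus of the pig, the fibrous ring of the intervertebral disc. The 6 are *PPL*, *MST1R*, *EPS8L2*, *PRSS27*, *TPD52L1* and *FBXO2*, which makes 6 of the 22198 genes in the deposited table. They were chosen by their fold-changes between Hyperloaded and Non-loaded Control annuli, which were large and of opposite direction, so their differences between these groups are given as a description and without a test. The Hyperloaded group holds 6 libraries from 4 anaesthetized Duroc-cross pigs in which a lumbar vertebra was pushed by hand every 1 or 2 min for 4 h. The Control group holds 6 libraries from 6 pigs that were anaesthetized in the same way and received no load. Pigs of both groups were 3 to 4 months old and of mixed sex, and the wedge of tissue came from the ventral annulus of the disc just below the loaded vertebra. Which Hyperloaded libraries share a pig, and which interval each pig received, is not given in the sources used here. The p-values below therefore take every library as a separate animal, which makes them smaller than they should be.

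Epithelial cells form sheets that are sealed by tight junctions, riveted by desmosomes and stiffened by keratin filaments. Periplakin, the product of *PPL*, is a plakin that ties keratin filaments to desmosomes and to the cornified envelope. MST1R, also called RON, is a receptor tyrosine kinase of the MET family whose ligand is macrophage-stimulating protein, the product of *MST1*. EPS8L2 is an actin regulator of the EPS8 family, known from the stereocilia of hair cells. PRSS27, or marapsin, is a trypsin-like serine protease of stratified squamous epithelium, and TPD52L1 is a small coiled-coil protein of the TPD52 family of vesicle traffic. FBXO2 is the F-box subunit of a ubiquitin ligase that binds high-mannose N-glycans. It is known from brain and inner ear rather than as a general marker of epithelium. The annulus holds fibroblast-like cells in its outer layers and chondrocyte-like cells in its inner layers, and no epithelium.

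By RefSeq's annotation of Sscrofa11.1, the genome build that the authors also used, the 6 genes lie on 5 chromosomes. *PPL* (ENSSSCG00000007927) spans chr3:37460487-37511879 on the plus strand, and *PRSS27* (ENSSSCG00000008062) spans chr3:39395014-39399971 on the same strand. *MST1R* (ENSSSCG00000027992) spans chr13:32401623-32423614 on the minus strand, *EPS8L2* (ENSSSCG00000012848) chr2:435257-452630 on the plus strand and *TPD52L1* (ENSSSCG00000004225) chr1:37667476-37761670 on the minus strand. *FBXO2* (ENSSSCG00000025667) spans chr6:71740647-71747265 on the minus strand. Its first 56 bases overlap *FBXO44*, which runs the other way, and since the library kit does not keep the strand, reads from those bases cannot be assigned to either gene.

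The sequence before the annotated start is shown for 3 of the genes on account of their values. *PPL* is the gene of the opposite direction, and *EPS8L2* and *TPD52L1* were high and low in the same Controls. The capitals mark matches to the E-box CAGGTG, which reads CACCTG on the other strand and is bound by factors such as SNAI1 and ZEB1, and to the GC box GGGCGG, which reads CCGCCC on the other strand. The positions are chr3:37460337-37460486 for *PPL* on the plus strand, chr2:435107-435256 for *EPS8L2* on the plus strand and chr1:37761671-37761820 for *TPD52L1* on the minus strand, all in Sscrofa11.1.
PPL: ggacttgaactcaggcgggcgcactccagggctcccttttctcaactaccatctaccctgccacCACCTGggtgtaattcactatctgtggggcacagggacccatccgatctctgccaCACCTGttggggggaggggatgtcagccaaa
EPS8L2: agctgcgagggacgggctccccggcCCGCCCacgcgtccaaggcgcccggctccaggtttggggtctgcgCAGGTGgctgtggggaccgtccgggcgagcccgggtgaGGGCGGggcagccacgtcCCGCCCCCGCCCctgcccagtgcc
TPD52L1: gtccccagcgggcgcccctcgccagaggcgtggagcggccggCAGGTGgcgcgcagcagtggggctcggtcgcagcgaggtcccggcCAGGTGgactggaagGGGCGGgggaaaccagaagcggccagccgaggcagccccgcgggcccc

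Over the 300 bases before the start, searched on both strands, the E-box was found for 4 of the 6 genes, against 22.7% of the 19556 protein-coding genes of the annotation. *EPS8L2* held 3, *PPL* 2, *TPD52L1* 2 and *MST1R* 1. The match before *MST1R* lies in a stretch that closely resembles the one before *PRSS27*, and whether that stretch is a repeat was not tested. The GC box was found for 3 of the 6, against 47.6% of all genes, with 4 in *EPS8L2*, 2 in *FBXO2* and 1 in *TPD52L1*, and none in *PPL*. The TATA motif TATAAA was found for *TPD52L1* alone, against 11.9% of all genes. The AP-1 motif TGANTCA, held by 6.34% of all genes, and the SOX9 motif AACAAT, held by 8.86%, were found for none of the 6. GC content before the start was 76.7% for *EPS8L2* and 71.0% for *FBXO2*, against a median of 56.7% over all genes. A match to a few letters is not a bound site, and the annotated start need not be the one used in annulus.

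Libraries held 12484228 to 19298415 counts in the Hyperloaded group and 12519458 to 24897110 in the Control group. Levels are given as CPM, the counts scaled to a common library size by TMM, a correction for libraries in which a few transcripts take a large share. The quasi-likelihood test of edgeR was run on the 12597 genes that reached 10 counts in all libraries of either group. The words rose and fell are kept for genes other than the 6 whose adjusted p was below 0.05. Hyperloaded replicates 2, 3 and 6 held skeletal muscle transcripts, and Hyperloaded replicates 1 and 5 were closest to the Controls, so values without these libraries are given where they bear on a result. Another fit left out Control replicate 6 and Hyperloaded replicates 1 and 3, for which counts but no raw data were available.

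*PPL* was the one gene of the 6 that was higher in Hyperloaded annuli. Its level was 2.23 CPM at the lowest, 13.1 CPM at the median and 51.0 CPM at the highest in the Hyperloaded libraries, against 0.451, 1.00 and 1.92 CPM in the Controls. Every Hyperloaded library lay above every Control. Replicate 6 stood highest at 51.0 CPM and replicate 2 next at 24.8 CPM, while replicates 5 and 1, at 2.23 and 3.53 CPM, lay just above the highest Control. The mean was 17.9 ± 18.1 CPM in Hyperloaded annuli and 1.09 ± 0.505 CPM in Controls (SD, n = 6 each), a log2 fold-change of 4.02 (standard error 0.70). *PPL* counts were 26 to 1121 in the Hyperloaded libraries and 8 to 51 in the Controls, so it passed the count minimum only through the Hyperloaded group. *EPS8L2*, *TPD52L1* and *FBXO2* passed only through the Controls, where they are high, and *MST1R* and *PRSS27* passed in both groups.

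*MST1R*, the receptor tyrosine kinase, was lower in Hyperloaded annuli. Its level was 1.22 CPM at the lowest, 1.41 CPM at the median and 4.36 CPM at the highest in the Hyperloaded libraries, against 5.66, 11.3 and 17.6 CPM in the Controls. The groups did not overlap. The Controls fell into 2 sets of 3, with 16.6 to 17.6 CPM in replicates 1, 2 and 3 and 5.66 to 6.03 CPM in replicates 4, 5 and 6. The mean was 2.19 ± 1.38 CPM in Hyperloaded annuli and 11.5 ± 6.19 CPM in Controls (SD, n = 6 each), a log2 fold-change of -2.43 (standard error 0.45).

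*EPS8L2*, the actin regulator, had the lowest level per transcript length of the 6 genes in Hyperloaded annuli. It reached 0.143 CPM at the median and 0.856 CPM at the highest there, with 0 counts in replicate 4, which allows up to 0.183 CPM (3 counts, for counting error only). In the Controls the lowest was 1.04 CPM, the median 4.12 CPM and the highest 5.67 CPM. The groups did not overlap, but Control replicates 5 and 6, at 1.04 and 1.11 CPM, came near Hyperloaded replicate 5 at 0.856 CPM. The mean was 0.310 ± 0.355 CPM in Hyperloaded annuli and 3.54 ± 2.10 CPM in Controls (SD, n = 6 each), a log2 fold-change of -3.61 (standard error 0.69). The *EPS8L2* values rest on 0 to 11 counts per Hyperloaded library and 11 to 138 per Control.

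*PRSS27*, the marapsin protease, had the smallest fold-change of the 6. Its level was 2.03 CPM at the lowest, 4.32 CPM at the median and 7.65 CPM at the highest in the Hyperloaded libraries, against 8.86, 17.8 and 21.8 CPM in the Controls. The groups did not overlap, and 5 of the 6 Controls lay between 17.3 and 21.8 CPM. Control replicate 6, at 8.86 CPM, stood apart from them. The mean was 4.60 ± 2.55 CPM in Hyperloaded annuli and 17.3 ± 4.49 CPM in Controls (SD, n = 6 each), a log2 fold-change of -1.92 (standard error 0.36). *PRSS27* lies in a family of similar proteases, and whether the authors' counting shared its reads with a relative is not known.

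*TPD52L1* overlapped between the groups. Hyperloaded replicates 4 and 6 had 0 counts, which allows up to 0.183 and 0.137 CPM, and the median of the Hyperloaded libraries was 1.28 CPM and the highest 4.54 CPM, in replicate 5. In the Controls the lowest was 3.14 CPM, the median 18.5 CPM and the highest 24.2 CPM. Control replicates 5 and 6, at 4.15 and 3.14 CPM, lay below Hyperloaded replicate 5, while the other 4 Controls held 15.4 to 24.2 CPM. The mean was 1.52 ± 1.73 CPM in Hyperloaded annuli and 15.4 ± 9.62 CPM in Controls (SD, n = 6 each), a log2 fold-change of -3.41 (standard error 0.88).

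*FBXO2*, the glycan-binding F-box protein, overlapped through 1 library of each group. Its level was 0.0611 CPM at the lowest, 0.263 CPM at the median and 2.91 CPM at the highest in the Hyperloaded libraries, against 2.13, 5.87 and 8.50 CPM in the Controls. Hyperloaded replicate 5, at 2.91 CPM, lay above Control replicate 6 at 2.13 CPM, and the other 5 Hyperloaded libraries held at most 0.447 CPM. The mean was 0.689 ± 1.10 CPM in Hyperloaded annuli and 5.74 ± 2.68 CPM in Controls (SD, n = 6 each), a log2 fold-change of -3.19 (standard error 0.70), and -4.49 without Hyperloaded replicate 5. *FBXO44*, its head-to-head neighbour and an F-box protein of the same subfamily, also fell, with a mean of 5.82 ± 1.45 CPM in Hyperloaded annuli and 13.6 ± 4.27 CPM in Controls (SD, n = 6 each) and -1.23 on the log2 scale (standard error 0.23, edgeR adjusted p = 0.00726). The name of that gene was taken from the study's list of lower transcripts, so it is not independent evidence of direction. Its adjusted p was 0.0585 without Hyperloaded replicates 2, 3 and 6, at a log2 fold-change of -1.32, and 0.228 with the chondrocyte level described below as a term (both edgeR).

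**Figure D1:**
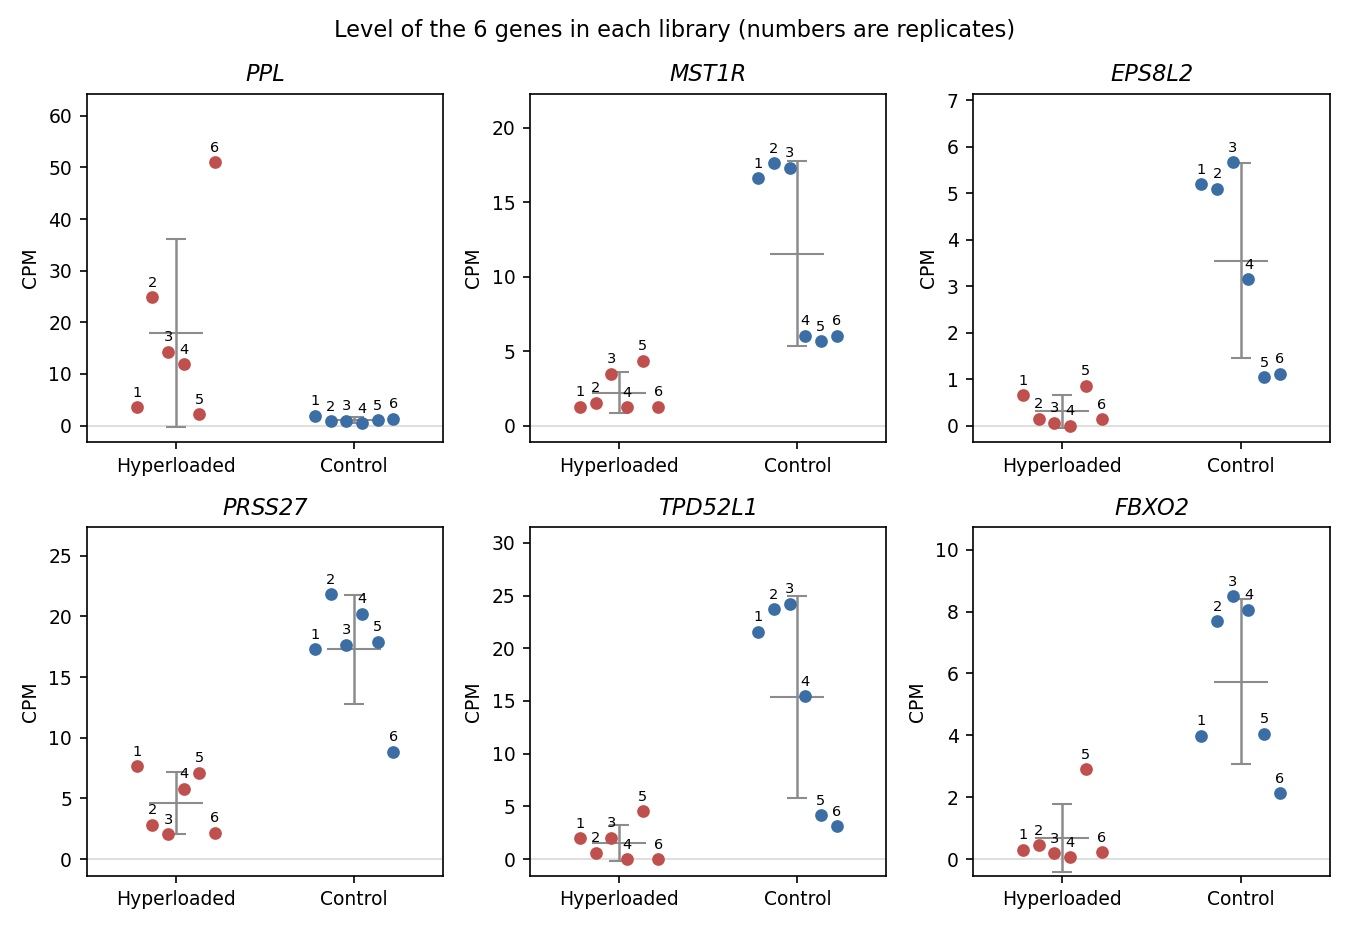
CPM of each of the 6 genes (vertical axes, separate scales) in the 6 Hyperloaded libraries (red, left) and the 6 Control libraries (blue, right), with replicate numbers, the mean (wide bar) and the SD (whiskers). *PPL* is higher in every Hyperloaded library, the other 5 have a lower mean there, and *TPD52L1* and *FBXO2* overlap between the groups.

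All 6 genes had an adjusted p under 0.05, where 19.3% of all tested genes did, and 4 of 6 had groups that did not overlap, where 6.79% of all tested genes did. *PPL*, the 1 gene that was higher, is one of these 4, where 3.81% of all genes did not overlap and were higher. The other 3 (*MST1R*, *EPS8L2* and *PRSS27*) were lower, where 2.98% of all genes did not overlap and were lower. Since the 6 were chosen for this difference, nothing is read from these shares. By the size of the log2 fold-change, the 6 took places 55 (*PPL*), 75 (*EPS8L2*), 82 (*TPD52L1*), 95 (*FBXO2*), 212 (*MST1R*) and 386 (*PRSS27*) among the 12597 genes. The choice named no limit of size, so no gene stands just inside or outside of one.

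Levels of different genes were set side by side per kilobase of the longest RefSeq transcript. In Hyperloaded annuli *PRSS27* (2.98 ± 1.65 CPM per kb) and *PPL* (2.72 ± 2.75 CPM per kb) stood first, followed by *TPD52L1* (0.888 ± 1.01), *FBXO2* (0.524 ± 0.833), *MST1R* (0.332 ± 0.209) and *EPS8L2* (0.0919 ± 0.105, SD, n = 6 for each gene). Of the neighbours in that order, only *MST1R* and *EPS8L2* differed by more than the larger of their SDs. In Controls the order was *PRSS27* (11.2 ± 2.91 CPM per kb), *TPD52L1* (8.97 ± 5.61), *FBXO2* (4.37 ± 2.04), *MST1R* (1.75 ± 0.938), *EPS8L2* (1.05 ± 0.621) and *PPL* (0.165 ± 0.0765, SD, n = 6 for each gene). There, *PRSS27* and *TPD52L1*, *TPD52L1* and *FBXO2*, and *MST1R* and *EPS8L2* differed by less than the larger SD. *PPL* was thus second in Hyperloaded annuli and last in Controls.

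The spread between libraries differed between the genes. The SD was 25.9% of the mean for *PRSS27* in Controls and 46.3 to 62.6% for the other 5. In Hyperloaded annuli it was 55.5% for *PRSS27*, 62.9% for *MST1R*, and 101 to 159% for *PPL*, *TPD52L1*, *EPS8L2* and *FBXO2*.

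The label of these genes was checked against 3 lists of epithelial genes, which cover epithelial identity, keratins, and desmosome and cornified envelope. The table names 19 of the 25 listed identity genes, 6 of the 14 keratins and 13 of the 17 desmosome and envelope genes. The levels of the unnamed ones could not be read. Of the 38 listed genes that the table names, 28 had a mean under 1 CPM in both groups, and 5 (*ESRP1*, *KRT4*, *KRT15*, *DSG3* and *IVL*) had 0 counts in every library. *EPCAM*, the epithelial adhesion molecule, averaged 0.0636 CPM in Hyperloaded annuli and 0.0125 CPM in Controls. *CDH1*, the E-cadherin of epithelial junctions, averaged 0.106 CPM in Hyperloaded annuli and 0.0294 CPM in Controls. The other 10 of the 38 genes reached a mean of 1 CPM in at least 1 group, as did the 6 genes, and among them were junction genes such as *JUP*, *CLDN4* and *DSP*.

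Of those 38 genes, 7 passed the count minimum, and by edgeR 0 rose and 0 fell, where 10.8% of all tested genes rose and 8.45% fell. Of the 7, 1 had an unadjusted edgeR p under 0.05, DESeq2 called 1 and limma voom called 2. Over all 12597 tested genes, 4599 had an unadjusted edgeR p under 0.05, DESeq2 called 3348 and limma voom called 3652. Nothing is read from the counts among the 7. *CLDN4*, a claudin of tight junctions, had 2.38, 5.64 and 16.2 CPM as the lowest, median and highest in Hyperloaded annuli, against 10.9, 14.6 and 25.6 CPM in Controls. The groups overlapped, and its log2 fold-change was -1.09 (standard error 0.41, edgeR adjusted p = 0.0764). It was called lower by DESeq2 (adjusted p = 0.0379) and limma voom (adjusted p = 0.0176), and by edgeR without Hyperloaded replicate 5 (adjusted p = 0.0454) or 6 (adjusted p = 0.0334). These are 4 of 24 other fits, and without Hyperloaded replicates 2, 3 and 6 its edgeR adjusted p was 0.145. *DSP*, the desmoplakin that anchors keratin filaments beside periplakin, averaged 3.74 CPM in Hyperloaded annuli and 3.91 CPM in Controls, with a log2 fold-change of -0.06. *JUP*, the plakoglobin shared by desmosomes and adherens junctions, averaged 43.3 CPM in Hyperloaded annuli and 52.1 CPM in Controls, with a log2 fold-change of -0.27. The other tested genes were *OCLN* (-0.01), *SPINT2* (-0.09), *DSG2* (-0.41) and *PKP3* (-0.41), and the median of the 7 was -0.27, against 0.00489 over all genes. *PKP3*, a plakophilin of desmosomes, had -0.77 without Hyperloaded replicate 1 and was then called by edgeR (adjusted p = 0.0217). It was called in 3 of 24 other fits, and without Hyperloaded replicates 2, 3 and 6 it had 0.00444 (edgeR adjusted p = 0.995). *LAMB3*, a laminin chain of epithelial basement membrane that did not pass the minimum, was called lower in the fits that relaxed it.

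**Figure D2:**
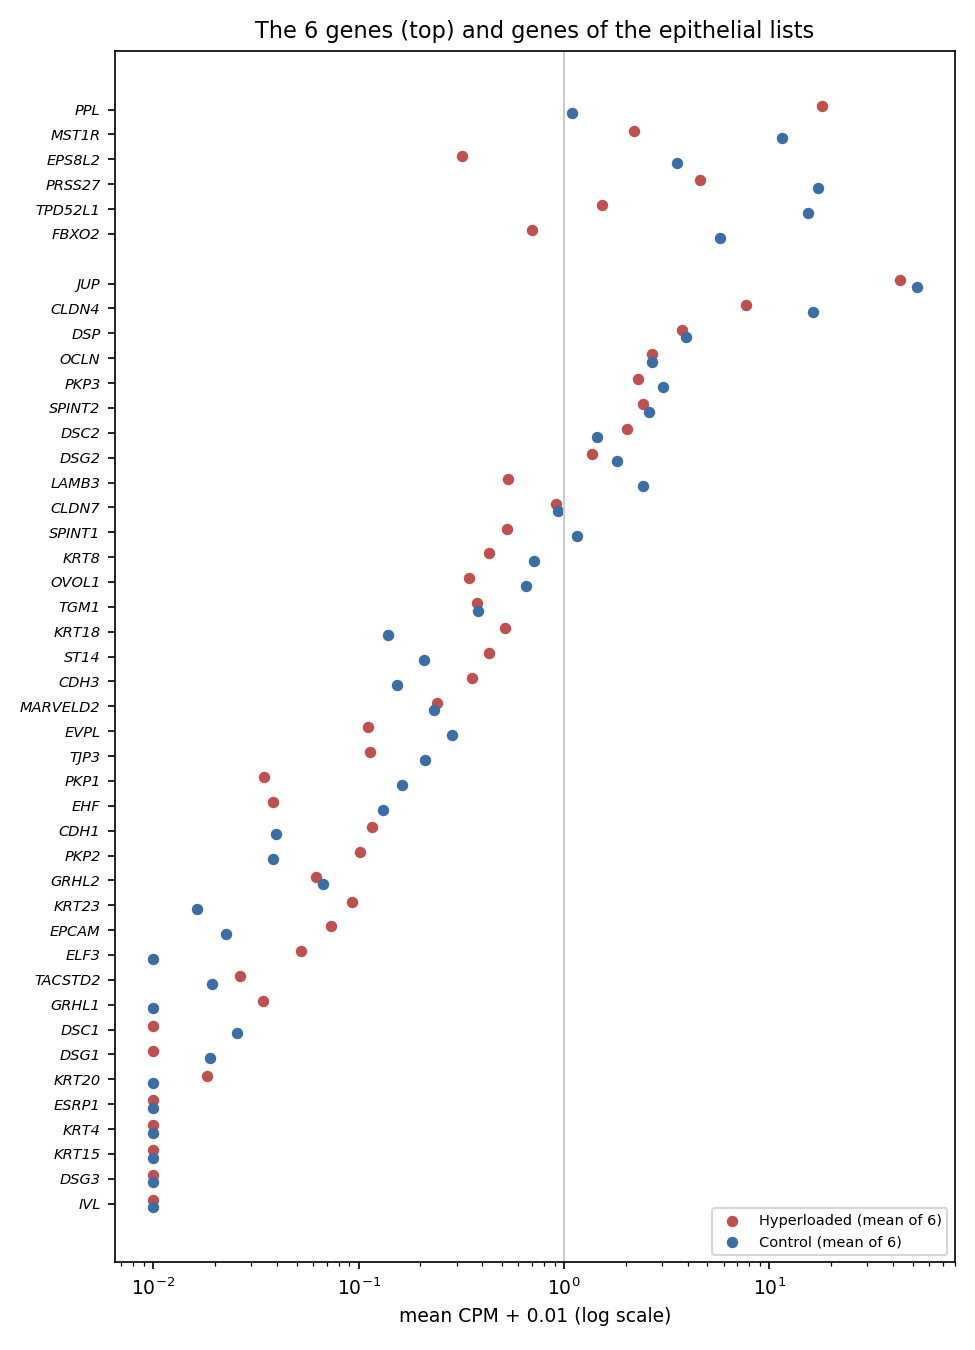
Mean CPM plus 0.01 (horizontal, log axis, not corrected for transcript length) of the 6 genes at the top and of the 38 genes of the epithelial lists below, for Hyperloaded (red) and Control (blue) annuli, n = 6 libraries each. Most of the genes shown lie left of the line at 1 CPM in both groups, among them *EPCAM*, *CDH1* and the 6 keratins that could be named, of 14 listed.

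Relatives and partners of the 6 genes were taken from 6 lists. They name 30 genes of the table, of which 17 passed the count minimum. Of these, 3 rose (17.6%) and 1 fell (5.88%), where 10.8% of all genes rose and 8.45% fell, and the median log2 fold-change was 0.17. *FBXO44* is in the lists too but was left out of this count, since its name came from the study's list of lower transcripts. With it, 3 of 18 rose and 2 of 18 fell. That share of falls is above the one over all genes, but nothing is read from it. It rests on 2 genes, and the direction of *FBXO44* was already given by the list that named it.

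Of the 6 other plakins listed, 3 were tested and none of them passed. *EVPL* did not reach the count minimum, and *PLEC* and *EPPK1* were not named in the table. *DSP* had a log2 fold-change of -0.06, *DST*, the bullous pemphigoid plakin dystonin, 0.09, and *MACF1*, a plakin that links actin to microtubules, -0.21. Around *MST1R*, the ligand gene *MST1* had -0.03, the sister receptor *MET* 0.57 and the protease inhibitor *SPINT2* -0.09, and none of the 3 passed.

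In the EPS8 family, the founding member rose where *EPS8L2* was lower. *EPS8*, which caps and bundles actin, ran from 33.3 to 78.5 CPM in Hyperloaded annuli, against 26.8 to 55.2 CPM in Controls, with a mean of 60.6 ± 15.5 CPM in Hyperloaded annuli and 35.6 ± 10.2 CPM in Controls (SD, n = 6 each). Its groups overlapped, and its log2 fold-change was 0.77 (standard error 0.22, edgeR adjusted p = 0.0287). The call was lost, at adjusted p values of 0.0510 to 0.0660 by edgeR, without Control replicate 1, 2 or 4 or Hyperloaded replicate 3 or 6, each left out alone. *ABI1*, the adaptor that joins EPS8 to SOS1, averaged 26.8 ± 5.76 CPM in Hyperloaded annuli and 17.7 ± 2.60 CPM in Controls (SD, n = 6 each), with 0.60 on the log2 scale (standard error 0.16, adjusted p = 0.0220 by edgeR). It was lost without Control replicate 2 (adjusted p = 0.0519), Control replicate 4 (adjusted p = 0.0513) or Hyperloaded replicate 6 (adjusted p = 0.0519). *SOS1*, the exchange factor for RAS, had 0.22 and *BAIAP2*, a membrane-bending partner of EPS8, had 0.21, and neither passed.

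Among the trypsin-like proteases, members moved in both directions. *PRSS35*, a protease-like protein known from the mouse ovary, averaged 6.05 ± 3.61 CPM in Hyperloaded annuli and 1.84 ± 0.552 CPM in Controls (SD, n = 6 each), with 1.72 on the log2 scale (standard error 0.41, edgeR adjusted p = 0.0157). *PRSS53* averaged 1.40 ± 0.486 CPM in Hyperloaded annuli and 3.22 ± 0.886 CPM in Controls (SD, n = 6 each), with -1.21 on the log2 scale (standard error 0.25, adjusted p = 0.0104 by edgeR). *PRSS12*, *PRSS23* and *PRSS36* had 0.25, 0.17 and -0.27 and did not pass. *TPD52*, the namesake of the TPD52L1 family, had 0.52 (edgeR adjusted p = 0.0609), and *CUL1*, the scaffold of the ubiquitin ligase that FBXO2 joins, had -0.26, and neither passed. All 4 calls in these lists were lost when the chondrocyte level was a term of the fit, and also without Hyperloaded replicates 2, 3 and 6.

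**Figure D3:**
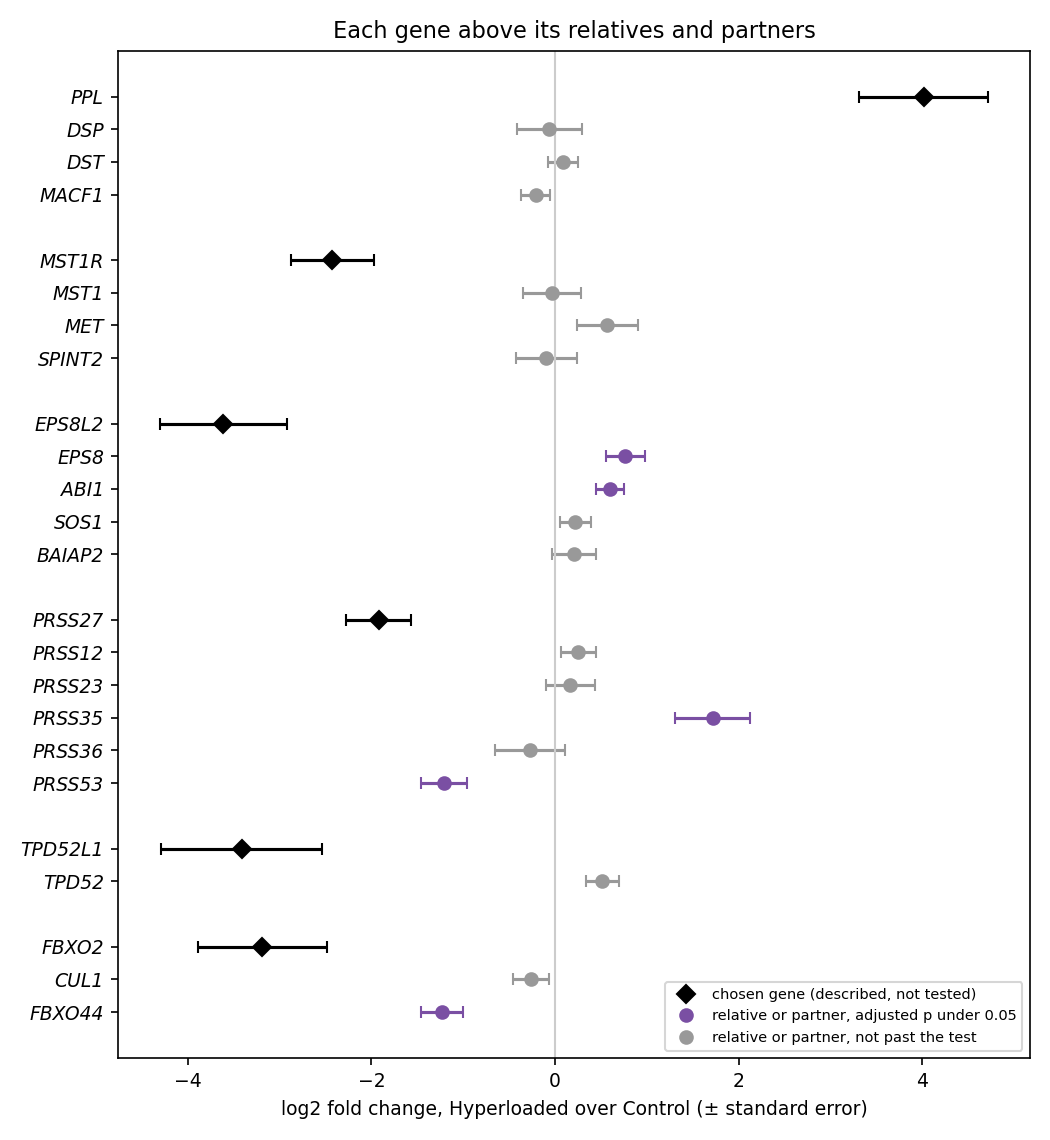
Log2 fold-change of Hyperloaded over Control (horizontal, whiskers show the standard error of edgeR) for the 6 genes (black) and, under each, the tested relatives and partners (purple where the adjusted p was under 0.05, grey otherwise). Apart from *FBXO44* and *PRSS53*, no relative or partner lies further left than -0.27, and none comes near the 4.02 of *PPL*.

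Neighbours on the chromosome were also read. Of the 24 nearest tested genes with a symbol, 2 on each side of each gene, 2 rose and 1 fell, where 10.8% of all genes rose and 8.45% fell. *IRF7*, an interferon regulatory factor near *EPS8L2*, rose by 1.04 on the log2 scale (standard error 0.33, edgeR adjusted p = 0.0448), and 8 of the 12 fits that left out 1 library did not call it (adjusted p 0.0636 to 0.108, without Control replicate 1, 2, 3, 4 or 5 or Hyperloaded replicate 3, 4 or 6). Near *TPD52L1*, *RNF217*, a ubiquitin ligase, rose with 0.63 (standard error 0.16, adjusted p = 0.0196 by edgeR). The adjusted p of *RNF217* was 0.208 with the chondrocyte level as a term, 0.125 without Hyperloaded replicates 2, 3 and 6, and 0.104 without Control replicate 6 and Hyperloaded replicates 1 and 3 (all edgeR). *HDDC2*, also near *TPD52L1*, fell with -0.62 (standard error 0.16, adjusted p = 0.0211 by edgeR, and 0.0528 without Control replicate 2). In those same fits *HDDC2* had an adjusted p of 0.380, 0.110 and 0.0648, and with library size alone it had -0.35 (edgeR adjusted p = 0.274). *UBN1*, whose gene begins 427 bases after *PPL*, had -0.17 (standard error 0.15) and did not pass.

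The makeup of the wedges moved with the groups. The mean log2 CPM of 11 chondrocyte markers was 5.17 to 10.07 in the Hyperloaded libraries, against 9.23 to 11.29 in the Controls, and 2 of the 11 fell while 9 did not pass. Of 7 markers of fibrous outer annulus and tendon 3 rose and 1 fell. *COL2A1*, the main collagen of cartilage, ran from 1733 to 143900 CPM in Hyperloaded annuli, against 118100 to 628500 CPM in Controls. *COL1A2*, a chain of fibrous collagen, ran from 61300 to 235500 CPM in Hyperloaded annuli, against 37210 to 223000 CPM in Controls. Of 9 tested macrophage and monocyte markers 7 rose, with a summed level of 173 to 329 CPM in Hyperloaded annuli, against 31.1 to 184 CPM in Controls. All 3 tested skeletal muscle markers rose, with a summed level of 21.9 to 28970 CPM in Hyperloaded annuli, against 6.03 to 139.8 CPM in Controls. Of 3 endothelial markers 1 fell, no nerve marker was tested, and of the notochord list only *PAX1* was tested and did not pass. In bulk tissue, fewer cells of a type and less RNA per cell cannot be told apart.

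The levels of the 6 genes were read beside the chondrocyte level of each library. *PPL* was highest in Hyperloaded replicate 6, which had the lowest chondrocyte level of all (5.17), and lowest in Control replicate 4, which had the highest (11.29). *TPD52L1* had 0 counts in Hyperloaded replicates 4 and 6, the libraries with the 2 lowest chondrocyte levels (5.59 and 5.17). Hyperloaded replicates 1 and 5 had chondrocyte levels of 10.07 and 9.24, within the range of the Controls. They were not matched to the Controls in all markers. Their mean log2 CPM of the fibrous annulus and tendon list, 11.2 and 11.17, lay above every Control (9.27 to 11.05). That of the macrophage list was 4.68 in replicate 1, above every Control (0.886 to 4.11), and 4.04 in replicate 5, within that range. In replicate 1, *PPL* at 3.53 CPM was above every Control, and the other 5 genes were below every Control, with *MST1R* at 1.26 CPM, *EPS8L2* at 0.657 CPM, *PRSS27* at 7.65 CPM, *TPD52L1* at 1.97 CPM and *FBXO2* at 0.299 CPM. In replicate 5, *PPL* was above and *MST1R*, *EPS8L2* and *PRSS27* were below every Control, while *TPD52L1* and *FBXO2* lay within the Control range.

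With the chondrocyte level as a term of the fit, the log2 fold-changes were 1.99 for *PPL*, -1.88 for *MST1R*, -2.24 for *EPS8L2*, -1.40 for *PRSS27*, -1.38 for *TPD52L1* and -1.65 for *FBXO2*. In that fit edgeR called 24 of the 12597 genes in all, 19 higher and 5 lower. The chondrocyte level differed between the groups, so loading and the makeup of the wedge cannot be told apart by it. Without Hyperloaded replicates 2, 3 and 6, which held the muscle transcripts, *PPL* had 2.41, with 167 calls over all genes. Without Hyperloaded replicates 1 and 5, *EPS8L2* had -5.19 and *FBXO2* -4.57. No fit turned the direction of any of the 6. With the chondrocyte level as a term, 0 of the 6 had an edgeR adjusted p under 0.05. Without Hyperloaded replicates 2, 3 and 6, only 1 did, which was *PRSS27* (edgeR adjusted p = 0.045).

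**Figure D4:**
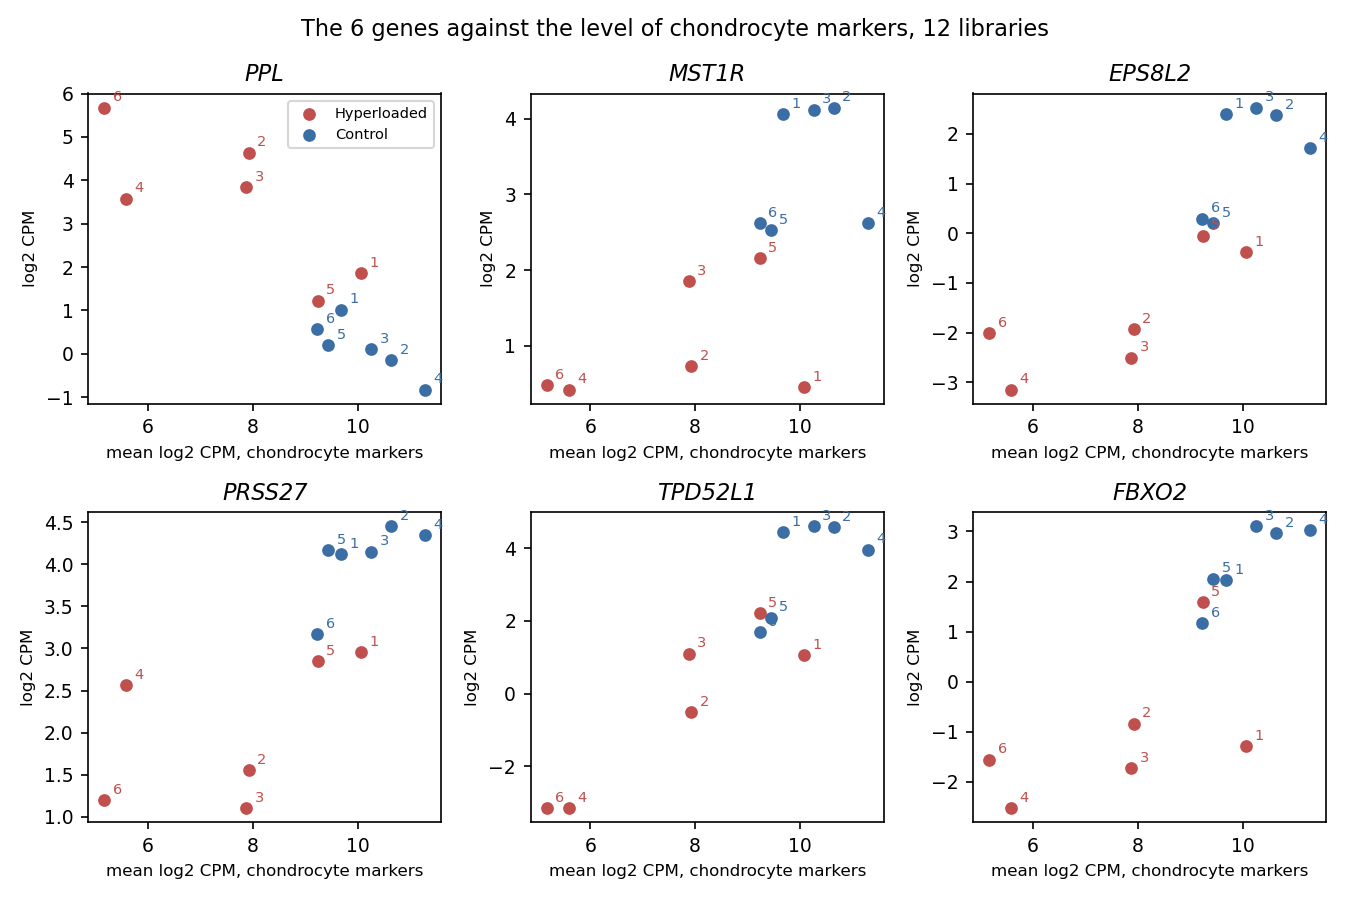
Log2 CPM of each of the 6 genes (vertical) against the mean log2 CPM of 11 chondrocyte markers (horizontal) in the 6 Hyperloaded (red) and 6 Control (blue) libraries, with replicate numbers. The Hyperloaded libraries reach lower on the chondrocyte axis, and Hyperloaded replicate 1 at 10.07 lies below every Control in 5 of the genes and above every Control in *PPL*.

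**Figure D5:**
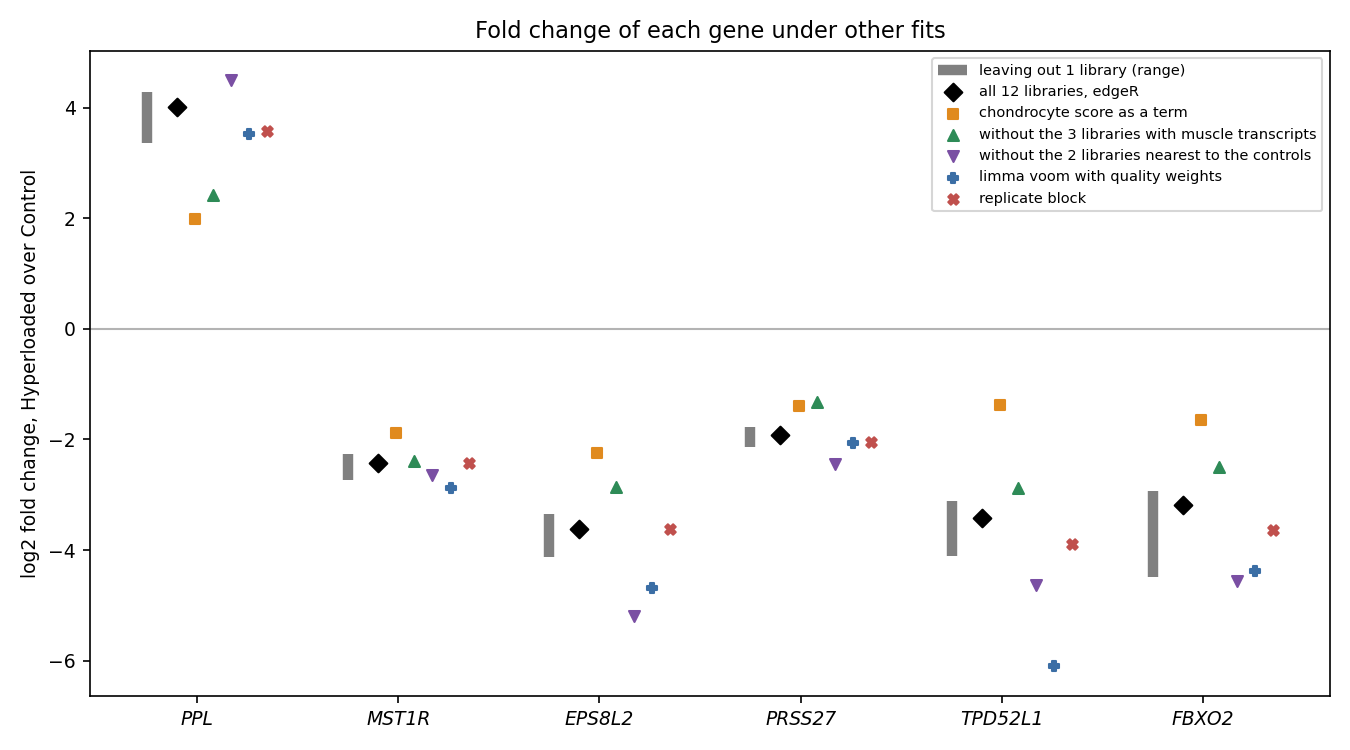
Log2 fold-change of Hyperloaded over Control (vertical) of the 6 genes in edgeR with all 12 libraries (black diamonds), over the fits that leave out 1 library (grey range) and in 5 other fits (coloured marks). All marks of *PPL* lie above 0 and all those of the other 5 genes below 0, and the marks nearest to 0 come from the fit with the chondrocyte level or, for *PRSS27*, from the fit without the muscle libraries.

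Relations between levels were computed among the Controls alone, over 6 libraries from 6 pigs. Control levels entered the choice of the genes through the fold-change. Whether their variation from one Control to the next also did is not known, so the tests below may not be free of that choice. Control replicates 1, 2 and 3 were high in 3 of the genes, with 16.6 to 17.6 CPM of *MST1R*, 5.10 to 5.67 CPM of *EPS8L2* and 21.6 to 24.2 CPM of *TPD52L1*. Control replicates 5 and 6 were low in the same 3, with 5.66 and 6.03 CPM of *MST1R*, 1.04 and 1.11 CPM of *EPS8L2* and 4.15 and 3.14 CPM of *TPD52L1*. Control replicate 4 went with the low set in *MST1R* (6.03 CPM) and lay between the sets in *EPS8L2* (3.15 CPM) and *TPD52L1* (15.4 CPM). With such sets no pooled correlation is given for these genes. Of the 15 pairs among the 6 genes, 0 had an adjusted p under 0.05 in an exact permutation test over 720 pairings, while 5 had an unadjusted p under 0.05 by Pearson's r and 2 by Spearman's rho.

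Of the 24 relations of the 6 genes with 4 marker lists (chondrocyte, fibrous annulus and tendon, macrophage, epithelial identity), 0 passed the same adjusted exact permutation test, while 3 had an unadjusted p under 0.05 by Pearson's r and 1 by Spearman's rho. The smallest p that 6 libraries allow is 0.00139 for Pearson's r. For Spearman's rho it is larger, since the reversed order of ranks counts too. Even a perfect rho could not pass the adjustment over 24 relations alone, so nothing is read from the adjusted p values of rho. *PPL* had Pearson's r = -0.844 with the chondrocyte level among Controls (exact permutation p = 0.0306, adjusted p = 0.196) and Spearman's rho = -0.829 (exact permutation p = 0.0583, adjusted p = 0.352). Without the 2 Controls farthest from the median, r was -0.616. With the macrophage level, *PPL* had r = 0.853 (exact permutation p = 0.0528, adjusted p = 0.196) and rho = 0.543 (exact permutation p = 0.297, adjusted p = 0.357). That r was -0.123 without the 2 farthest Controls. *FBXO2* had r = 0.859 with the chondrocyte level (exact permutation p = 0.0278, adjusted p = 0.196) and rho = 0.771 (exact permutation p = 0.103, adjusted p = 0.352), and r was 0.903 without the 2 farthest Controls. With the level of the fibrous annulus and tendon list, *FBXO2* had r = -0.912 (exact permutation p = 0.00833, adjusted p = 0.196) and rho = -0.886 (exact permutation p = 0.0333, adjusted p = 0.352), and r was -0.833 without the 2 farthest Controls.

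The transcripts whose levels were most like those of each gene were found by Pearson's r of log2 CPM over the 12 libraries. Only the 8392 tested genes with a symbol, of 12597 tested, were searched. The r values are the highest of that search, and the libraries differ by group and share pigs, so they are descriptions without a p. *PPL* was most like *FGL2*, a fibrinogen-like protein of macrophages and T cells, with r = 0.997, and 0.990 after the mean of each group was taken off. *FGL2* averaged 88.9 CPM in Hyperloaded annuli and 12.7 CPM in Controls. *SAMHD1*, a nucleotide phosphohydrolase abundant in myeloid cells, followed with 0.976, and *CCT2*, a chaperonin subunit, with 0.975. With group means taken off, *PTX3*, a secreted pentraxin of inflammation, had 0.950 and *GABARAPL1*, an autophagy protein, 0.945.

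*MST1R* was most like *AMHR2*, a receptor for anti-Müllerian hormone, with r = 0.943, then *SPRYD3* with 0.932 and *TMEM117* with 0.929. With group means taken off, *EVI2A* had 0.882 and *ZBED2* 0.881. *EPS8L2* was most like *ADCY6*, an adenylate cyclase, with 0.981, *CATSPER2*, a sperm calcium channel subunit, with 0.976 and *PLCD1*, a phospholipase C, with 0.972, and the same 3 led with group means taken off, at 0.949, 0.950 and 0.941.

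*PRSS27* was most like *AAAS*, a nuclear pore protein, with r = 0.984, *ABCC10*, a transporter, with 0.973 and *MAGEF1* with 0.968, and with group means taken off *GMPPA* had 0.968, *AAAS* 0.941 and *XYLT2*, a xylosyltransferase that starts proteoglycan chains, 0.920. *TPD52L1* was most like *CP*, which encodes ceruloplasmin, with 0.980, *LGR4*, an R-spondin receptor, with 0.978 and *TRPV4*, a mechanically and osmotically gated calcium channel of chondrocytes, with 0.976. These 3 also led with group means taken off, at 0.953, 0.947 and 0.974. *FBXO2* was most like *GAL3ST3*, a sulfotransferase, with 0.956, *NGEF* with 0.953 and *CILP*, the cartilage intermediate layer protein, with 0.953. With group means taken off, *FAM98A* had 0.865 and *CYB561D1* 0.862.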

How the data were processed

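Poly(A) RNA of ventral annulus wedges was sequenced with an unstranded kit in 12 libraries. Per the study's methods, the authors made reads with CASAVA 1.6, mapped them to Sscrofa11.1 with up to 2 mismatches in JMP Genomics 7.1, and generated total counts. The deposited values are expected counts per gene identifier without normalization, and 23.2 to 28.5% of those in a library were exactly whole, zeros included. The TPM values that the authors tested were not used here. Groups came from the labels. A gene name table gave symbols for 11700 of 22198 identifiers (52.7%), plus *FBXO44* from the study's sheets. No p-value or fold-change column of the study was used.

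Expected counts were rounded and tested with edgeR 4.0.16 (quasi-likelihood, TMM, no covariate) in R 4.3.3, over genes that reached 10 counts in all 6 libraries of either group, with Benjamini-Hochberg adjustment over all 12597. The study's methods used a one-way comparison on TPM, and a count test was taken since the file holds counts. CPM is TMM-scaled, and log2 CPM has a prior count of 2. Alternatives were DESeq2 1.42.0, limma 3.58.1 voom, other scalings and minimums, a chondrocyte term, a replicate term and omitted libraries. Positions, lengths and sequences came from RefSeq (Sscrofa11.1) in Python 3.11.15, by symbol. Pairs of libraries differed by far more than sampling noise (lowest chi-square per degree of freedom 30.7), so all 12 were kept.

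The genes, lists, motifs and tests were chosen with earlier results of these data known. Named genes are the 6, all tested genes of the family lists, the 3 highest and any called in the epithelial lists, the 3 most alike each gene on each scale (some are not reported here), and *COL2A1* and *COL1A2*. Other tested epithelial genes, *LAMB3*, *EPCAM*, *CDH1*, the genes at 0 and the chromosomal neighbours were named after their values were seen. Genes sharing reads with a close relative are uncertain.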

Additional observations from a re-analysis of the deposited data

Results flagged for a closer look

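Of 12 group values of the 6 genes that were examined for a library far from the others, 2 stood out by Dixon's test at the 95% level, and chance gives about 1 in 20. *PRSS27* in Control replicate 6 was 8.86 CPM, below the other 5 Controls by 0.653 of the range of that group. *FBXO2* in Hyperloaded replicate 5 was 2.91 CPM, above the other 5 Hyperloaded libraries by 0.865 of the range of that group.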

How the results depend on the processing

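The 6 genes kept their direction in all fits, though not an adjusted p under 0.05 in all of them. Leaving out 1 library gave log2 fold-changes of 3.35 to 4.28 for *PPL*, -2.74 to -2.26 for *MST1R*, -4.13 to -3.35 for *EPS8L2*, -2.13 to -1.77 for *PRSS27*, -4.11 to -3.12 for *TPD52L1* and -4.49 to -2.94 for *FBXO2*. These fits called 724 to 1767 genes higher and 512 to 1490 lower, 0 to 1 of the epithelial lists lower, and 1 to 4 of the relatives higher. The counts over all genes were 724 higher and 526 lower without Control replicate 2, 879 and 600 without Control replicate 3, 812 and 559 without Control replicate 4, 812 and 512 without Hyperloaded replicate 6, and 699 lower without Hyperloaded replicate 3. Of the relatives, 1 was higher without Control replicate 2 or 4 or Hyperloaded replicate 6, and 1 epithelial gene was lower without Hyperloaded replicate 1, 5 or 6. With the chondrocyte level as a term, *PPL* had 1.99, *EPS8L2* -2.24, *TPD52L1* -1.38 and *FBXO2* -1.65, with 19 genes higher and 5 lower over all and 0 relatives called in either direction. Without Hyperloaded replicates 2, 3 and 6, *PPL* had 2.41, with 127 genes higher, 40 lower and 0 relatives called. Without Hyperloaded replicates 1 and 5, *EPS8L2* had -5.19 and *FBXO2* -4.57, with 2139 genes higher, 1911 lower, 5 relatives higher and 1 epithelial gene lower. Limma voom gave -6.10 for *TPD52L1* and -4.38 for *FBXO2*, 1829 genes lower, 2 relatives lower and 2 epithelial genes lower. Library size alone gave 327 genes lower. The share of calls that were higher was 56.1%, against 44.3% under upper quartile scaling and 85.8% under library size alone, which moved the median log2 fold-change of all genes to 0.28. No count minimum, filterByExpr, DESeq2 and the omission of Control replicate 6 and Hyperloaded replicates 1 and 3 each called 1 epithelial gene lower, and the last called 1 relative higher. Over all genes these fits called 922, 1041, 1471 and 750 lower, in that order, and the last called 989 higher. The cause was not tested.

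Replicate numbers were not taken to pair the libraries, since no label ties them to a shared pig or day and same-numbered libraries had correlations of -0.121 to 0.263, over 0.1 in 3 of 6 pairs. As a hint from the data only, 6 of 12 libraries correlated best with their own number. With the replicate block, 950 genes were higher and 794 lower, and the log2 fold-changes were 3.58 for *PPL*, -2.42 for *MST1R*, -3.62 for *EPS8L2*, -2.04 for *PRSS27*, -3.89 for *TPD52L1* and -3.64 for *FBXO2*. Levels under about 0.3 CPM rest on a few counts.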
